A study of Mus musculus with 18 samples.

Results

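The genes described here are 36 genes of the absorptive enterocyte: the enzymes, cytoskeletal proteins and transporters of its brush border, and the proteins with which it packs dietary fat. They were taken as a named list, by function, with earlier results of these data known, so counts over them are a description. Each symbol was found among the 43432 gene identifiers of the count tables. Expression was measured in intestinal stem cells sorted from mice in which Dlg1, which encodes a scaffold protein of cell polarity, was conditionally deleted, and from wild-type mice. At 14 days after tamoxifen there were 5 Dlg1 knock-out (KO) and 5 wild-type (WT) libraries, and at 2 days (48 hours) there were 4 KO and 4 WT libraries. Mice of every group were 8 to 16 weeks old and had received tamoxifen, and a library was made from 5000 to 10000 sorted cells. The sources used here give neither the driver of the deletion, the deleted exons, the strain nor the marker used for the sort, nor is it said whether each library came from its own animal. P-values therefore measure the spread between libraries, which may be technical. At 2 days the KO columns are named Dmin, which was read as Dlg1 minus, and every result at that time rests on this reading.

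Enterocytes form the lining of the small intestinal villus. Their apical surface is folded into microvilli, the brush border, which carries the disaccharidases and peptidases that finish digestion and the transporters that take up the products. Absorbed fatty acids are bound by small carrier proteins, re-esterified to triglyceride in the endoplasmic reticulum and loaded onto apolipoprotein B to make chylomicrons. Stem cells at the crypt base do not carry out these tasks, and the programme is switched on as their daughters move up the villus under factors such as HNF4 and CDX2. In a sorted stem cell preparation, transcripts of these genes can come from low expression in the stem cells or from more mature cells in the sort, and fewer cells of a type and less RNA per cell cannot be told apart in such bulk libraries.

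Libraries held 11.1 to 15.7 M counts at 14 days and 14.8 to 40.5 M at 2 days, and mitochondrially encoded genes took 6.21% to 26.3% and 26.1% to 49.1% of them. The count of Dlg1 over the whole gene overlapped between genotypes. It lay between 41.8 and 100.8 CPM (counts scaled to library totals) in KO and between 60.5 and 85.8 CPM in WT at 14 days, and between 38.4 and 58.0 CPM in KO and between 48.3 and 69.5 CPM in WT at 2 days. Since the deleted part is not known here, this value does not check the labels. At 14 days satellite-like gene models took 46.7% of the counts of KO library 5 and between 0.0549% and 10% of those of the remaining 9 libraries, and results with and without it are given below. Stem cell markers were abundant throughout, with 17 of 17 tested and a summed level of 2830 to 3929 CPM in KO and 3137 to 4191 CPM in WT at 14 days, and of 5688 to 6591 CPM in KO and 6721 to 7383 CPM in WT at 2 days. The 14 immune markers summed to at most 17.5 CPM in KO and 61.1 CPM in WT over both times, and the 10 markers of stroma and endothelium to at most 23.4 CPM in KO and 17.3 CPM in WT. Among the stromal markers, Col3a1, Des and Cdh5 were at 0 in KO at 2 days, and Pdgfra and Cdh5 were at 0 in WT at 2 days.

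All 36 genes were detected in every library, from 6 counts (Slc15a1, KO library 3 at 14 days) to 23415 counts (Fabp1, WT library 3 at 14 days), and all 36 passed the filter on low counts at both times. None was called in either comparison when edgeR's quasi-likelihood p-values were adjusted by Benjamini-Hochberg across every gene tested. At 14 days the smallest adjusted p among them was 0.957, and 0.0% of the 13991 genes tested were called. At 2 days the smallest adjusted p was 0.866, and 0.0% of the 13031 genes tested were called. DESeq2 called none of the 36 either, with 0.00715% of all genes called at 14 days and 0.0998% at 2 days. The fold changes leaned to opposite signs at the 2 times, without passing that test. At 14 days 31 of the 36 log2 fold changes (KO over WT) were negative, against 49.0% of all genes, and their median was −0.34, against 0.01 for all genes. At 2 days 34 of 36 were positive, against 51.0% of all genes, with a median of 1.01, against 0.01 for all genes. Of the 36, 30 were negative at 14 days and positive at 2 days, 4 were positive at both times, Mgam was negative at both, and Mep1a was positive at 14 days and negative at 2 days.

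At an unadjusted p under 0.05, 5 of the 36 stood out at 14 days, where 3.99% of all genes did. Ada was higher in KO, where 2.44% of all genes were higher at that level, and Lct, Alpi, Treh and Ace were lower, where 1.55% were. A log2 fold change under −0.5 was found for 11 of the 36, against 4.81% of all genes. At 2 days 12 of the 36 had an unadjusted p under 0.05, against 4.91% of all genes, and all 12 were higher in KO, where 2.72% of all genes were higher at that level. They were Rbp2, Slc7a9, Mttp, Fabp1, Cdhr2, Mep1b, Alpi, Sis, Lgals3, Fabp2, Dgat1 and Apoa4. At 2 days 18 of 36 also had a log2 fold change above 1, against 4.11% of all genes. The groups did not overlap for Mttp, Dgat1 and Slc7a9 at 2 days, all higher in KO, where 2.03% of all genes were higher without overlap and 3.98% had no overlap in either direction. At 14 days no member separated the genotypes, and 0.529% of all genes did.

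The tendency at 2 days came mostly from 1 library. KO library 1 was the highest of the 8 for 32 of the 36 genes and lay 1.84 above the WT mean on the log2 scale, averaged over the genes, with 26 of them more than 2-fold above it. KO library 4 lay 0.74 above, whereas KO libraries 2 and 3 lay at 0.09 and −0.16, and the WT libraries lay between −0.10 and 0.14. Without KO library 1 the median log2 fold change was 0.15, with 27 of 36 positive and 2 at an unadjusted p under 0.05. Of the single fold changes, 23 came closer to 0 by over 1.5 times and 7 changed sign. Leaving out any other library gave medians between 0.91 and 1.24. At 14 days a pair of libraries stood out. WT library 3 was highest for 22 genes and lay 0.81 above the WT mean, and KO library 1 was highest for 8 and lay 0.47 above it, while the other KO libraries lay between −0.35 and −0.62 and WT library 2 at −0.65. These 2 libraries also had the highest mitochondrial share of counts in their groups, 24.2% in KO library 1, with the other KO libraries at 7.08% to 17.8%, and 26.3% in WT library 3, with the other WT libraries at 6.21% to 11.6%. At 2 days the share in KO library 1, 35.5%, lay within the 27.3% to 39.8% of the other KO libraries. The part of this share in the results was not tested. The median at 14 days was −0.57 without KO library 1, −0.15 without WT library 3 and −0.28 without KO library 5, which held the satellite-like counts. Without WT library 3, 16 single fold changes came closer to 0 by over 1.5 times and 6 changed sign, and without KO library 1, 15 moved further from 0 by as much.

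**Figure D1:**
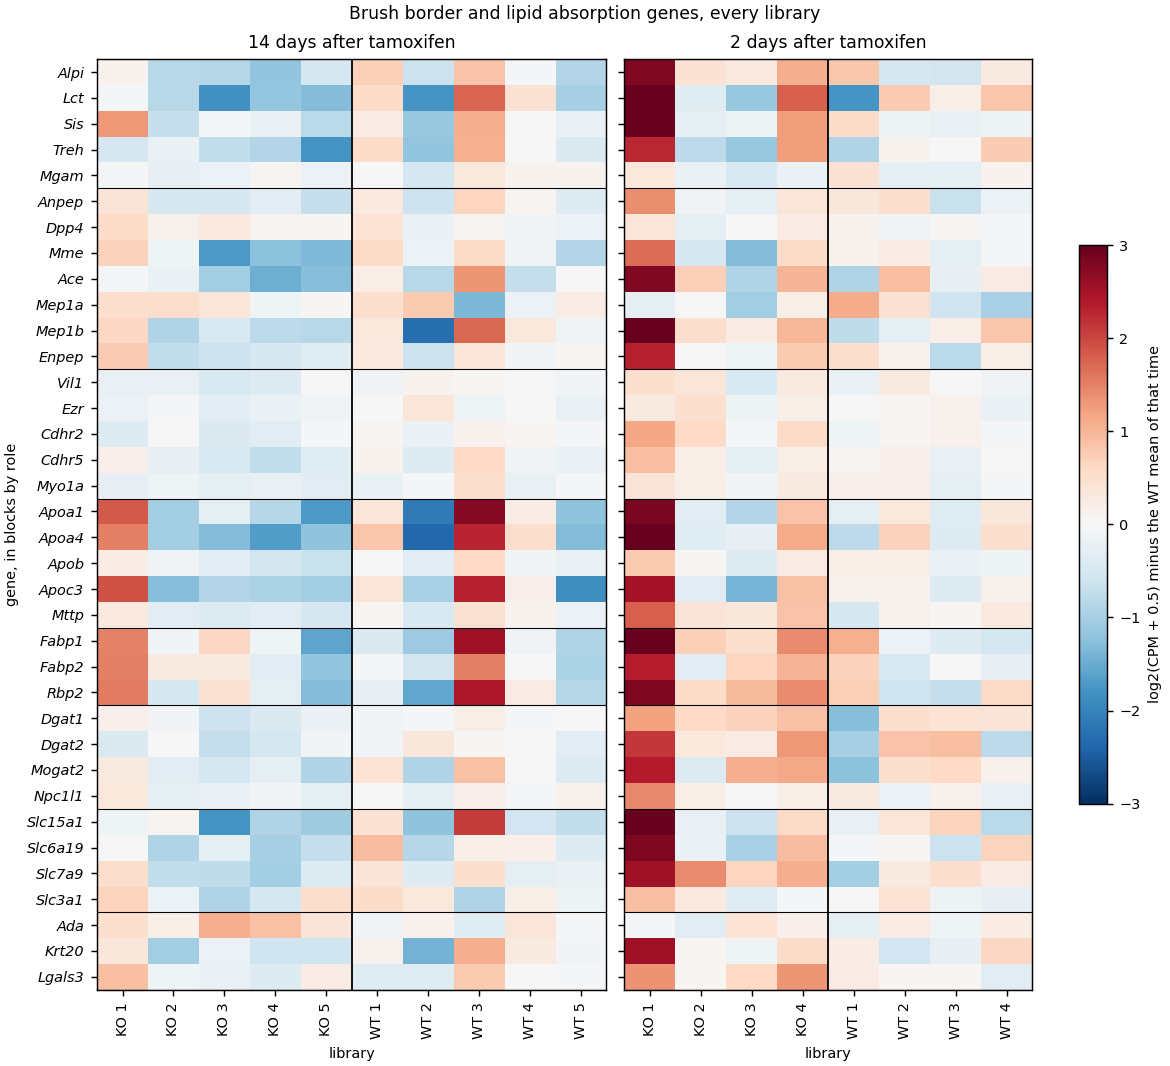
Each row is a gene, in blocks by role, and each column a library, with KO left of WT and 14 days left of 2 days; the colour is log2(CPM + 0.5) minus the WT mean of that time, and values beyond 3 in either direction are drawn in the end colours. KO library 1 at 2 days is the highest for 32 of 36 genes, and at 14 days WT library 3 is the highest for 22 and KO library 1 for 8.

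Names of the columns give possible subsets. At 14 days KO libraries 1 and 2 and WT libraries 1 and 2 have names that begin with B, and the other 6 names begin with J, a letter whose meaning the labels do not give. Within the B libraries (2 KO and 2 WT) the median difference of mean log2 CPM over the 36 genes was 0.17 with 25 positive, and within the J libraries (3 KO and 3 WT) it was −0.62 with 3 positive, so the sign at 14 days did not hold in both. At 2 days KO library 1 shares the leading digits 51 with WT library 3, and that pair (1 KO and 1 WT) differed by a median of 2.0 with all 36 positive. WT libraries 1 and 2 share other leading digits, which no KO library has. The shares over all genes were not computed for any of these subsets. KO libraries 2 to 4 share the digits 64 with WT library 4 and differed from it by a median of 0.17, with 25 positive.

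Markers of some other lineages, but not of all, moved with the libraries that stood out. At 14 days KO library 1 had the highest summed goblet markers (10 of 10 tested) at 14570.5 CPM, with the other KO libraries at 2259 to 4639 CPM, and WT library 3 had 6664 CPM, with the other WT libraries at 1599 to 2853 CPM. WT library 3 also had the highest Paneth sum (10 of 10 tested), 20399.6 CPM, with the other WT libraries at 2478 to 4777 CPM. KO library 1, at 5591 CPM, lay within the 4177 to 6665 CPM of the KO libraries. The tuft sum was highest in KO library 3, at 181 CPM, with 94.5 CPM in KO library 1. Among WT libraries the tuft sum was highest in WT library 3, at 154 CPM. Enteroendocrine markers summed to 677 CPM in KO library 1, with the other KO libraries at 246 to 370 CPM. They summed to 512 CPM in WT library 3, with the other WT libraries at 187 to 310 CPM. The lowest stem cell sum of each genotype was in KO library 1, at 2830 CPM, and in WT library 3, at 3137 CPM. By genotype at 14 days, 10 of 10 goblet markers (median log2 fold change 0.72) and 10 of 10 enteroendocrine markers (median 0.35) were positive. So were 3 of 10 Paneth markers (median −0.18) and 7 of the 9 tuft markers tested (median 0.49). Of all genes 51.0% were positive, and no marker of these lists was called by edgeR. At 2 days KO library 1 showed another combination, with the lowest goblet sum (498 CPM, against 688 to 1364 CPM in the other KO libraries and 530.4 to 690.1 CPM in WT) and the lowest Paneth sum of its genotype (781 CPM). Its stem cell sum was the highest of its genotype, 6591 CPM, with the other KO libraries at 5688 to 6144 CPM. All 4 KO sums lay below all 4 WT sums at that time, where 1.94% of single genes were lower in KO without overlap. Of the 17 stem cell markers, 13 were negative at 2 days (median log2 fold change −0.14), against 49.0% of all genes. None of the 17 had an unadjusted edgeR p under 0.05. No goblet, Paneth or enteroendocrine marker was at 0 throughout a group. The part of these other cells in the differences below was not tested.

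To show the regulatory sequence next to the values, the bases before the RefSeq start site (GRCm38.p6) were searched for short motifs of factors known to drive enterocyte genes. A window of 250 bases was available for 31 of the 36 genes and for 27025 genes in all. The HNF4 letters CAAAGTCCA or CAAAGTTCA, on either strand, were present in 5 of the 31 (16.1%), against 0.836% of all genes. These were Alpi, Treh, Apoa4, Rbp2 and Slc3a1, with the match 19, 71, 182, 101 and 39 bases before the start. The CDX letters CAATAAA were present in 3 (9.7%: Sis, Fabp2 and Slc3a1), against 4.89% of all genes. The GATA letters AGATAA were present in 7 (22.6%), against 11.4%, and the HNF1 motif in none, against 0.074%. The HNF1 motif was searched only without mismatches, and in that form it was found in just 20 of the 27025 genes. Near matches were not searched for, so finding none in the set does not show that HNF1 sites are absent from these windows. No match overlapped a match to another motif. Windows are shown for 4 genes from 3 of the roles below, to set the matches beside the values given later: Apoa4 (chr9:46240594-46240843, plus strand), Rbp2 (chr9:98490287-98490536, plus strand), Alpi (chr1:87101607-87101856, minus strand) and Sis (chr3:72967864-72968113, minus strand). Capitals mark HNF4 letters in Apoa4, Rbp2 and Alpi, a GATA match nearer the start in Rbp2 (both on the other strand there), and CDX letters in Sis, and each window reads 5′ to 3′ and ends at the base before the start.
Apoa4: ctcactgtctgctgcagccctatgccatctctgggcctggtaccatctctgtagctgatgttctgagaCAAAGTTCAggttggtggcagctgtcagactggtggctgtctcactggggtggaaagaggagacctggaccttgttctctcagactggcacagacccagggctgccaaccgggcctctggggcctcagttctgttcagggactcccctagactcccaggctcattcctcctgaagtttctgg
Rbp2: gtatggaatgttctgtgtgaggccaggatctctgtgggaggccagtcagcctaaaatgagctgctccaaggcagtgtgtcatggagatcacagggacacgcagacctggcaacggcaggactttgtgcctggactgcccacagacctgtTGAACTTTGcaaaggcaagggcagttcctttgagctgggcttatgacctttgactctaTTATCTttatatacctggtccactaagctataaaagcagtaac
Alpi: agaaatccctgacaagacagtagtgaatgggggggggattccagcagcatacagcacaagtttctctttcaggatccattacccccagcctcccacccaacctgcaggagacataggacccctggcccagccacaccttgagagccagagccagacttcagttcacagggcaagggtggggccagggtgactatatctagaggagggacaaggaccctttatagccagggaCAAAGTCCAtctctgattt
Sis: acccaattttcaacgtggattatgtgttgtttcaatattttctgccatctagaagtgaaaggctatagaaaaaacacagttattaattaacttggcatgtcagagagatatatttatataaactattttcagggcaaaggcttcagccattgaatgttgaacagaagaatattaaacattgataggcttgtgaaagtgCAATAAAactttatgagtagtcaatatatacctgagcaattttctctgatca
A match is a description of the letters and shows no binding. Distances hold for the RefSeq start only. In the GENCODE annotation Apoa4 starts at 46240696, inside the window shown, and Rbp2 at 98486115, before the window shown. Of 35 windows of the set, 28 matched bases near the start of a GENCODE transcript.

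The disaccharidases and the phosphatase of the brush border (5 genes) were lower in KO at 14 days, with 5 of 5 log2 fold changes negative and a median of −0.76, and 4 of 5 were higher at 2 days, with a median of 1.45. None passed the adjusted test. Alpi (ENSMUSG00000079440, GRCm38 chr1:87098002-87101606) encodes intestinal alkaline phosphatase, a classic marker of mature enterocytes. At 14 days Alpi had 65.1, 33.8, 33.2, 26.4 and 42.1 CPM in KO, against 99.4, 38.4, 111, 59.6 and 32.8 CPM in WT. The groups overlapped, and every KO library lay below the WT mean of 68.2 ± 35.3 CPM (SD, n = 5). Its log2 fold change was −0.76 ± 0.33 (SE, edgeR adjusted p = 0.957), and −0.52 without WT library 3. At 2 days Alpi had 115, 22.2, 20.2 and 35.5 CPM in KO, against 28.7, 11.3, 10.9 and 19.7 CPM in WT. All 4 KO libraries exceeded the WT mean of 17.7 ± 8.43 CPM (SD, n = 4), with KO library 1 far above the rest. Its log2 fold change was 1.45 ± 0.53 (SE, edgeR adjusted p = 0.866), and 0.54 without KO library 1.

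Lct, lactase, splits milk sugar and is made mainly in the proximal small intestine. In KO at 14 days it had 12.3, 6.86, 3.23, 5.39 and 4.85 CPM, against 18.9, 3.34, 43.9, 17.5 and 6.14 CPM in WT. No KO library reached the WT mean, but WT libraries 2 and 5 were as low as the KO libraries. The difference of −1.45 ± 0.56 (SE) was the largest at 14 days and was −0.81 without WT library 3. At 2 days Lct had 109, 5.87, 3.26 and 28 CPM in KO, against 1.92, 13.4, 8.92 and 14.2 CPM in WT, a pattern carried by KO libraries 1 and 4. Its log2 fold change there was 1.93 ± 0.91 (SE, edgeR adjusted p = 0.866), and 0.35 without KO library 1. Treh, trehalase, had 3.87, 4.93, 3.23, 2.86 and 1.28 CPM in KO, against 8.67, 2.23, 12.6, 5.66 and 4.13 CPM in WT at 14 days. Again no KO library reached the WT mean and the ranges overlapped (from 9 to 143 counts per library). The log2 fold change of Treh was −1.02 ± 0.46 (SE), and −0.66 without WT library 3. Treh at 2 days had 11.6, 0.974, 0.663 and 5.59 CPM in KO, against 0.869, 2.23, 2.07 and 3.83 CPM in WT, so that KO held both the highest and the lowest libraries. Sis, sucrase-isomaltase, averaged 131 ± 94.3 CPM in KO and 135 ± 75.1 CPM in WT at 14 days (SD, n = 5 each), and 184 ± 221 CPM in KO and 56.1 ± 15.9 CPM in WT at 2 days (SD, n = 4 each). Mgam, maltase-glucoamylase, was the steadiest of these 5, with log2 fold changes of −0.13 ± 0.18 at 14 days and −0.14 ± 0.22 at 2 days (SE).

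Of the 7 brush border peptidases, 5 were negative at 14 days (median −0.33) and 6 were positive at 2 days (median 0.52). Ace, the angiotensin-converting enzyme, also trims dietary peptides at the villus surface. It had 13.1, 11.6, 6.37, 4.55 and 5.28 CPM in KO at 14 days, against 15.6, 7.39, 34.6, 7.96 and 13.5 CPM in WT. KO libraries 3 to 5 lay below every WT library, and the log2 fold change was −0.93 ± 0.43 (SE, edgeR adjusted p = 0.957), and −0.43 without WT library 3. At 2 days Ace had 111, 25.8, 8.07 and 32.0 CPM in KO, against 8.18, 29.8, 13.1 and 18.6 CPM in WT, a log2 fold change of 1.35 ± 0.63 (SE) that was 0.33 without KO library 1. Mep1b, the beta subunit of the metalloprotease meprin, had 51.1, 17.3, 23.8, 18.8 and 18.3 CPM in KO, against 41.3, 6.51, 109.6, 40.9 and 30.6 CPM in WT at 14 days. KO libraries 2 to 5 were within a narrow band while WT spanned the whole range, and the log2 fold change was −0.82 ± 0.52 (SE), and −0.20 without WT library 3. Mep1b at 2 days had 89.1, 12.7, 10.3 and 17.7 CPM in KO, against 4.89, 7.08, 10 and 15.9 CPM in WT. Every KO library exceeded the WT mean, and the log2 fold change of 1.78 ± 0.64 (SE) became 0.52 without KO library 1.

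Anpep, aminopeptidase N, was among the 3 genes of the set with the highest level per exon length in WT at 2 days. In KO at 14 days it had 98.0, 53.4, 52.3, 59.4 and 45.6 CPM, against 90.6, 48.2, 116, 78.5 and 56.9 CPM in WT. Anpep at 2 days had 1085, 380.0, 341 and 525 CPM in KO, against 515, 586, 259 and 361 CPM in WT. The genotypes overlapped at both times, with log2 fold changes of −0.33 ± 0.25 and 0.44 ± 0.36 (SE). Mep1a, the alpha subunit of meprin, went the other way from Mep1b, at 0.12 ± 0.37 at 14 days and −0.48 ± 0.47 at 2 days (SE), both smaller than or close to their errors. Dpp4, dipeptidyl peptidase 4, was above the WT mean in 5 of 5 KO libraries at 14 days (153 ± 22.7 CPM in KO and 132 ± 25.5 CPM in WT, SD, n = 5 each), and its log2 fold change was 0.22 ± 0.16 (SE). Mme (neprilysin) and Enpep (aminopeptidase A) had log2 fold changes of −0.55 ± 0.43 and −0.22 ± 0.28 at 14 days and of 0.52 ± 0.48 and 1.04 ± 0.50 at 2 days (SE). Without KO library 1 those at 2 days were −0.24 for Mme and 0.19 for Enpep.

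The 5 structural genes had small differences, with log2 fold changes between −0.35 and −0.18 at 14 days and between 0.19 and 0.64 at 2 days. Vil1 encodes villin, which bundles the actin core of the microvillus. At 14 days it had 416, 416, 354, 371 and 491 CPM in KO, against 453, 528, 511, 493 and 463 CPM in WT. KO libraries 1 to 4 lay below every WT library and KO library 5 lay within the WT range. The log2 fold change was −0.26 ± 0.15 (SE, edgeR adjusted p = 0.957), and the two-sided exact permutation test over the 10 libraries gave p = 0.0238 before adjustment, where 0.00794 is the smallest p that 5 against 5 allows. Such a p under 0.05 was found for 2 of the 36 at 14 days, Vil1 and Ada, against 3.74% of all genes, a share near the background. At 2 days Vil1 had 589, 544, 309 and 509.7 CPM in KO, against 369, 511, 429 and 394 CPM in WT, with KO holding both ends. Cdhr2, the protocadherin that links the tips of neighbouring microvilli, had 98.7, 132, 95.6, 103 and 124 CPM in KO, against 138, 112, 141, 135 and 125 CPM in WT at 14 days. At 2 days it had 113, 77.4, 49.8 and 76.3 CPM in KO, against 46.3, 53.3, 55.3 and 49.0 CPM in WT, so that KO libraries 1, 2 and 4 exceeded every WT library. At 2 days the Cdhr2 difference was 0.64 ± 0.22 (SE, edgeR adjusted p = 0.866) and remained at 0.40 without KO library 1. Its partner Cdhr5, the membrane linker Ezr (ezrin) and the motor Myo1a had log2 fold changes at 2 days of 0.31 ± 0.22, 0.21 ± 0.17 and 0.19 ± 0.16 (SE).

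**Figure D2:**
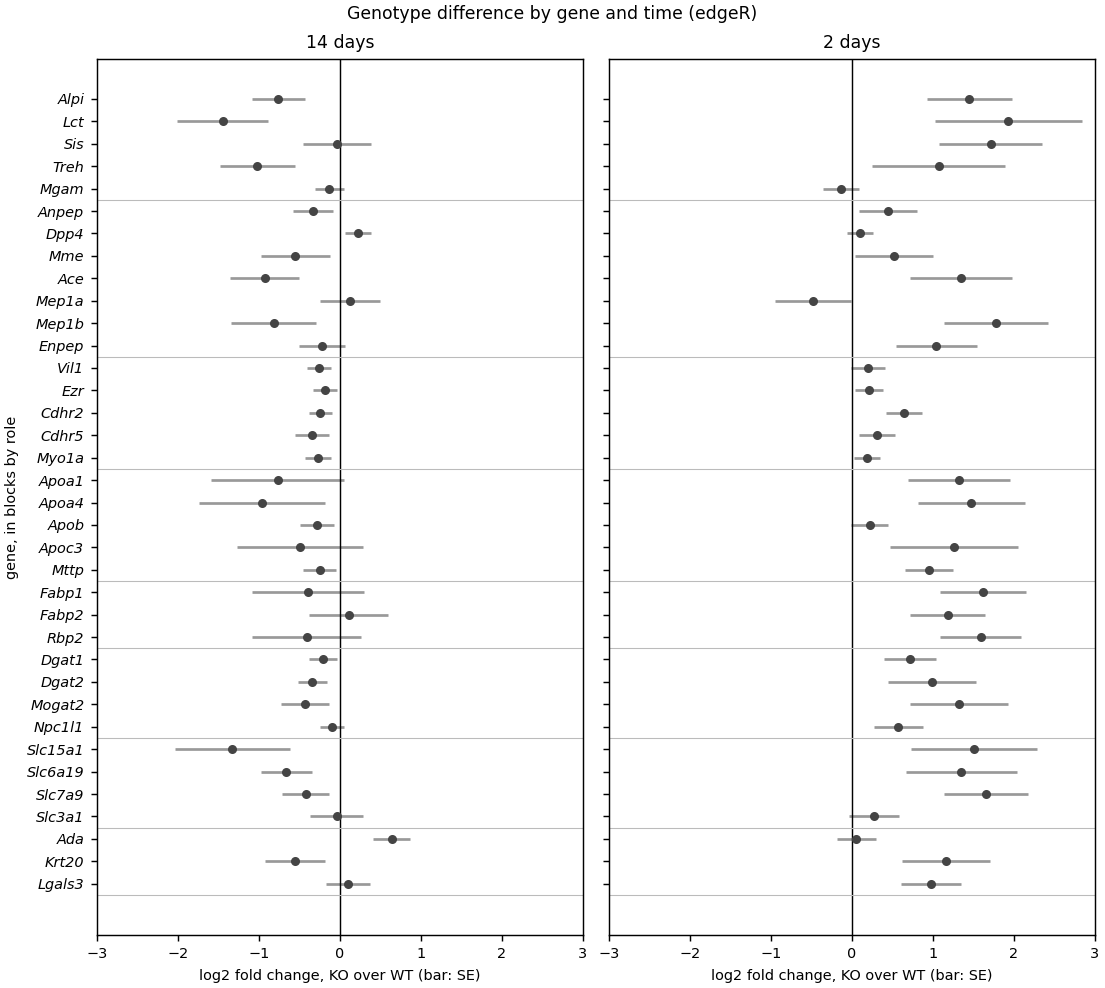
Points are log2 fold changes, KO over WT, of the 36 genes at 14 days (left) and 2 days (right). Bars are 1 SE, derived from edgeR's F statistic, and lines separate the roles. At 14 days 31 points lie left of 0 and at 2 days 34 lie right of it, and the 5 structural genes, Vil1, Ezr, Cdhr2, Cdhr5 and Myo1a, lie between −0.35 and 0.64 at both times.

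The 5 lipoprotein genes were all lower in KO at 14 days (median log2 fold change −0.49) and all higher at 2 days (median 1.26), and none passed the adjusted test. Mttp encodes the microsomal transfer protein that loads triglyceride onto apolipoprotein B. At 14 days Mttp had 203, 129, 125, 132 and 117 CPM in KO, against 173, 119.8, 227, 177 and 145 CPM in WT, with overlapping groups and a log2 fold change of −0.25 ± 0.20 (SE). At 2 days it had 215, 80.8, 79.1 and 112 CPM in KO, against 44.5, 67.6, 64.8 and 76.1 CPM in WT. Every KO library exceeded every WT library, although KO libraries 2 and 3 did so by only a few CPM. The log2 fold change was 0.95 ± 0.30 (SE, edgeR p = 0.00895 before adjustment, adjusted p = 0.866), the two-sided exact permutation p was 0.0286, the smallest that 4 against 4 allows, and the log2 fold change was 0.51 without KO library 1. Exons of Mttp overlap Trmt10a on the opposite strand, and since the strand setting of the counting is not given, reads of the pair cannot be told apart there. The same holds for shorter or weakly expressed overlaps of Vil1 with Usp37, Dpp4 with Gm13561 and Ace with Gm11651.

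Apoa1, Apoc3 and Apoa4 are neighbours on chromosome 9, between 46228580 and 46243459 (Apoc3 on the opposite strand to the other two). At 14 days Apoa1 ranged from 46.2 to 552 CPM in KO (median 84.3) and from 34.6 to 1031 CPM in WT (median 179.6), Apoc3 from 5.47 to 54.2 CPM in KO (median 6.99) and from 3.57 to 70.8 CPM in WT (median 15.6), and Apoa4 from 8.93 to 85.2 CPM in KO (median 12.4) and from 5.34 to 146 CPM in WT (median 42.6). For all 3 the highest KO library was library 1 and the highest WT library was library 3, and the log2 fold changes of −0.77 ± 0.82, −0.49 ± 0.78 and −0.96 ± 0.78 (SE) were close to their errors. Without KO library 1 they were −1.85, −1.78 and −2.12, and without WT library 3 they were 0.57, 0.55 and −0.08. At 2 days KO library 1 was again highest, at 394 CPM for Apoa1, 14.2 CPM for Apoc3 and 206 CPM for Apoa4, against WT maxima of 71.0, 2.37 and 40.3 CPM. Without that library the log2 fold changes at 2 days, 1.32 ± 0.63, 1.26 ± 0.79 and 1.47 ± 0.66 (SE) with it, were 0.02, −0.03 and 0.21. Apob itself varied less, with 94.0 ± 24.3 CPM in KO and 115 ± 32.3 CPM in WT at 14 days (SD, n = 5 each) and 497 ± 171 CPM in KO and 426 ± 60.7 CPM in WT at 2 days (SD, n = 4 each).

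The carriers Fabp1 and Fabp2, which bind fatty acids in the cytosol, and Rbp2, which binds retinol, were all higher in KO at 2 days (3 of 3 at an unadjusted p under 0.05, against 2.72% of all genes in that direction, median log2 fold change 1.59). None passed the adjusted test. At 14 days none of these 3 genes had a fold change larger than its error. Fabp1 had 1073, 361, 593, 349 and 128 CPM in KO, against 285, 179, 2246, 356 and 206 CPM in WT. Fabp2 had 904, 382, 378, 255 and 138 CPM in KO, against 308, 215, 905, 318 and 162 CPM in WT. Rbp2 had 374, 88.6, 173, 105 and 50.9 CPM in KO, against 107, 42.6, 683, 150.3 and 70.1 CPM in WT. In each case 1 library per genotype, KO library 1 and WT library 3, stood far above the others. Log2 fold changes were −0.39 ± 0.69, 0.11 ± 0.49 and −0.41 ± 0.67 (SE), and without WT library 3 they were 0.97, 0.71 and 0.78.

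Rbp2 had 88.6, 18.5, 24.3 and 33.6 CPM in KO at 2 days, against 20.7, 8.02, 7.42 and 18.7 CPM in WT. KO libraries 1, 3 and 4 exceeded every WT library and KO library 2 lay within the WT range. The log2 fold change of 1.59 ± 0.50 (SE, edgeR adjusted p = 0.866) ranked first of the set by p at 2 days and was 0.88 without KO library 1. Fabp1 at 2 days had 244, 50.2, 42.5 and 81.6 CPM in KO, against 64.2, 27.0, 23.2 and 21.0 CPM in WT. WT library 1 overlapped KO, and the log2 fold change of 1.62 ± 0.53 (SE) was 0.77 without KO library 1 and 2.13 without WT library 1. Fabp2 at 2 days had 1050.3, 162, 317 and 411 CPM in KO, against 330.1, 149, 204 and 171 CPM in WT, with KO libraries 2 and 3 within the WT range and a log2 fold change of 1.18 that was 0.47 without KO library 1.

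Resynthesis of triglyceride inside the enterocyte runs through Mogat2, which acylates monoglyceride, and Dgat1 and Dgat2, which make triglyceride, while Npc1l1 takes up cholesterol at the brush border. All 4 were negative at 14 days (median log2 fold change −0.28) and positive at 2 days (median 0.85). Dgat1 at 2 days ranged from 94.6 to 144 CPM in KO (median 108) and from 25.2 to 86.5 CPM in WT (median 82.3). All 4 KO libraries lay above all 4 WT libraries, with the lowest KO library at 94.6 CPM and the highest WT library at 86.5 CPM. Dgat1's log2 fold change was 0.72 ± 0.32 (SE, edgeR adjusted p = 0.866; two-sided exact permutation p = 0.0286), and 0.44 without WT library 1. Dgat2 and Mogat2, neighbours on chromosome 7 (99153658 to 99182719 and 99219084 to 99238619), had log2 fold changes of −0.34 ± 0.18 and −0.43 ± 0.30 at 14 days and of 0.99 ± 0.54 and 1.32 ± 0.61 at 2 days (SE). Without KO library 1 those at 2 days were 0.45 for Dgat2 and 0.67 for Mogat2, and Mogat2 at 14 days was −0.16 without WT library 3. Npc1l1 averaged 69.8 ± 13.1 CPM in KO and 74.9 ± 8.61 CPM in WT at 14 days (SD, n = 5 each). At 2 days it averaged 97.7 ± 53.5 CPM in KO and 65.6 ± 11.1 CPM in WT (SD, n = 4 each), with only KO library 1, at 178 CPM, above the WT range.

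Among the 4 transporters of peptides and amino acids, Slc7a9 had the clearest separation. It encodes the light chain of the cystine transporter. At 14 days it had 54.0, 22, 21.6, 18.1 and 28 CPM in KO, against 48.9, 28.5, 52.1, 31.0 and 31.8 CPM in WT. KO library 1 was the highest of all and the other 4 KO libraries lay below every WT library, for a log2 fold change of −0.42 ± 0.29 (SE). At 2 days Slc7a9 had 18.8, 8.27, 4.64 and 6.57 CPM in KO, against 1.12, 3.52, 4.20 and 3.40 CPM in WT. The groups did not overlap, though KO library 3 and WT library 3 were close, with 84 and 73 counts. The log2 fold change was 1.65 ± 0.52 (SE, edgeR p = 0.00787 before adjustment, adjusted p = 0.866; two-sided exact permutation p = 0.0286), and 1.08 without KO library 1. Its heavy chain, Slc3a1, gave −0.04 ± 0.33 at 14 days and 0.27 ± 0.31 at 2 days (SE). Slc3a1 overlaps Prepl on the opposite strand, so part of its count is uncertain.

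Slc6a19 carries neutral amino acids across the apical membrane. In KO at 14 days it had 23.1, 12.0, 19.0, 11.3 and 13.8 CPM, against 43.6, 12.4, 26.1, 25.4 and 17.3 CPM in WT. No KO library reached the WT mean of 25.0 ± 11.9 CPM (SD, n = 5). The log2 fold change was −0.66 ± 0.31 (SE, edgeR adjusted p = 0.957), and −0.36 without WT library 1. Slc6a19 at 2 days had 48.8, 5.57, 3.10 and 12.8 CPM in KO, against 6.26, 6.68, 3.97 and 10.6 CPM in WT, and the log2 fold change of 1.35 ± 0.69 (SE) was 0.04 without KO library 1. The peptide transporter Slc15a1 had the lowest mean CPM of the set in KO and in WT at 14 days. It ranged there from 0.497 to 3.16 CPM in KO and from 0.997 to 14.2 CPM in WT. At 2 days it lay between 1.82 and 29.4 CPM in KO and between 1.56 and 5.24 CPM in WT, and its log2 fold change of 1.51 ± 0.78 (SE) was −0.14 without KO library 1.

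Ada, Krt20 and Lgals3 complete the set. Ada, adenosine deaminase, had the highest of the 5 positive log2 fold changes at 14 days (the others were Dpp4, Mep1a, Fabp2 and Lgals3). It had 13.7, 11.1, 21.3, 18.4 and 13.0 CPM in KO, against 9.15, 10.7, 7.48, 12.7 and 9.52 CPM in WT. All KO libraries exceeded the WT mean of 9.90 ± 1.92 CPM (SD, n = 5), and 4 of them exceeded every WT library. The log2 fold change was 0.64 ± 0.23 (SE, edgeR p = 0.0133 before adjustment, adjusted p = 0.957; two-sided exact permutation p = 0.0159), and leaving out any 1 library gave 0.49 to 0.75. At 2 days Ada had 17.1, 14.2, 23.7 and 19.6 CPM in KO, against 14.3, 20.6, 16.1 and 20.7 CPM in WT, a log2 fold change of 0.05 ± 0.24 (SE). Krt20, a keratin of differentiated cells, had log2 fold changes of −0.55 ± 0.37 at 14 days and 1.16 ± 0.54 at 2 days (SE), which were −0.20 without WT library 3 and 0.12 without KO library 1. Lgals3, a galactose-binding lectin of villus cells, averaged 124 ± 50.1 CPM in KO and 116 ± 42.9 CPM in WT at 14 days (SD, n = 5 each), and 9.69 ± 3.98 CPM in KO and 4.93 ± 0.878 CPM in WT at 2 days (SD, n = 4 each). KO libraries 1, 3 and 4 exceeded every WT library at 2 days, and the log2 fold change of 0.97 ± 0.37 (SE) remained at 0.78 without KO library 1.

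**Figure D3:**
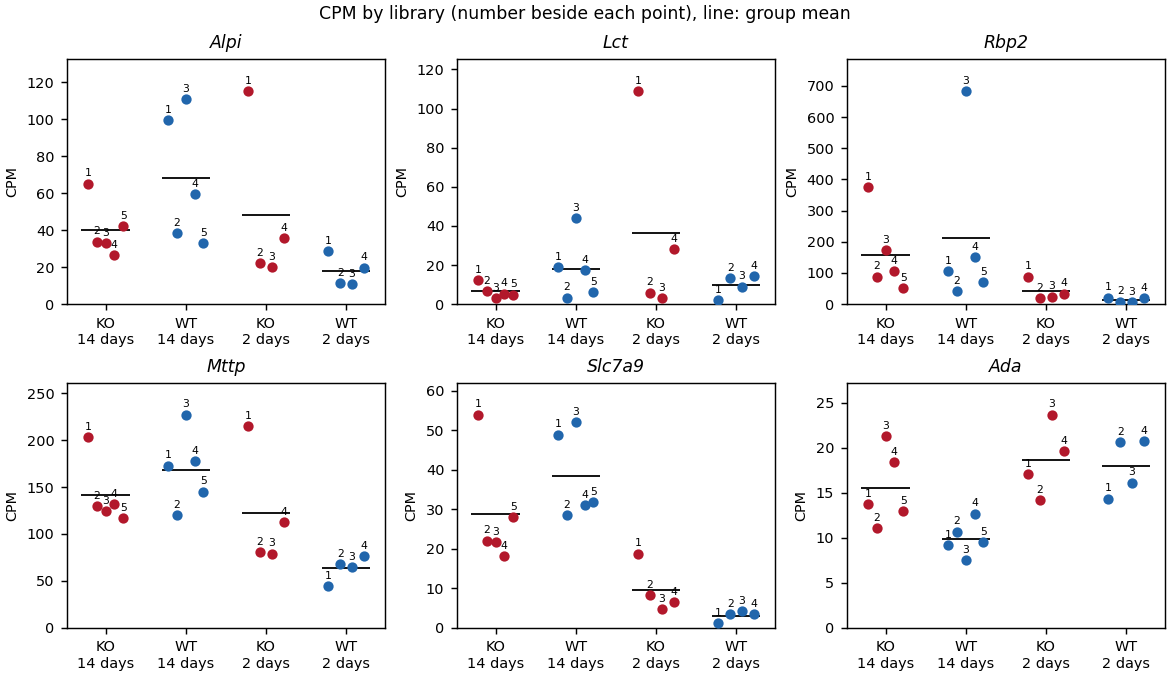
CPM of 6 of the genes in each library (points, with the library number) and the group mean (line), KO left of WT and 14 days left of 2 days. KO library 1 at 2 days is highest of its group for every gene shown but Ada, KO and WT do not overlap for Mttp and Slc7a9 at 2 days, and 4 of 5 KO libraries exceed every WT library for Ada at 14 days.

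The difference of the genotype effect between times (14 days minus 2 days) was tested in a single fit of all libraries. No gene of the set was called, with a smallest adjusted p of 0.723 (Slc7a9 and Cdhr2) and 0.0% of 15458 genes called. DESeq2 called none of the 36 and 0.0841% of all genes. At an unadjusted p under 0.05 there were 18 of 36, against 5.96% of all genes, and all 18 were negative, where 3.64% of all genes were. A difference under −0.5 was found for 28 of 36, against 19.9% of all genes. The median difference was −1.24, against −0.01 for all genes, and 33 of 36 were negative. Slc7a9 had the smallest p, with a difference of −2.09 ± 0.58 (SE, edgeR adjusted p = 0.723), followed by Cdhr2 at −0.89 ± 0.25 and Alpi at −2.22 ± 0.66. By role the medians were −2.10 for the disaccharidases and phosphatase, −1.07 for the peptidases, −0.47 for structure, −1.76 for the lipoproteins, −2.01 for the carriers, −1.15 for the acyltransferases and Npc1l1, and −2.05 for the transporters. Without KO library 1 of 2 days the median of the 36 was −0.67 and 5 were at an unadjusted p under 0.05. The call depended on the filter, since with no filter on low counts 15 of the 36 were called and 0.277% of 35326 genes. Since each time has a table to itself, time and any run or cohort effect cannot be told apart.

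**Figure D4:**
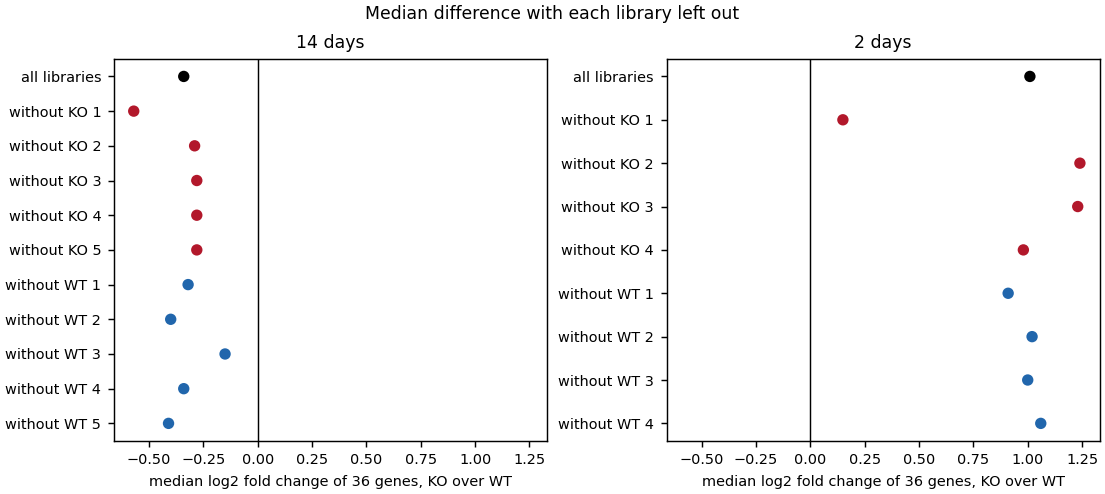
Median log2 fold change of the 36 genes, KO over WT, with all libraries (black) and with each KO (red) or WT (blue) library left out, at 14 days (left) and 2 days (right). At 2 days the median is 1.01 with all libraries and 0.15 without KO library 1, and at 14 days it runs from −0.57 without KO library 1 to −0.15 without WT library 3.

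The genes of the set ranged from steady to variable between libraries of 1 group. The median SD of log2 CPM over the 36 genes was 0.50 in KO and 0.58 in WT at 14 days, and 0.93 in KO and 0.51 in WT at 2 days. Over all genes tested the same medians were 0.36 in KO and 0.34 in WT at 14 days, and 0.32 in KO and 0.41 in WT at 2 days. The steadiest were Ezr, Dpp4, Vil1, Myo1a and Cdhr2, mostly proteins of the microvillus skeleton, with SDs of 0.11 and 0.22 in KO and WT at 14 days and 0.27 and 0.14 in KO and WT at 2 days for Ezr. The most variable were Lct, Apoa4, Apoa1, Fabp1 and Apoc3. For Lct the SD was 0.66 in KO and 1.39 in WT at 14 days, and 2.2 in KO and 1.22 in WT at 2 days.

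**Figure D5:**
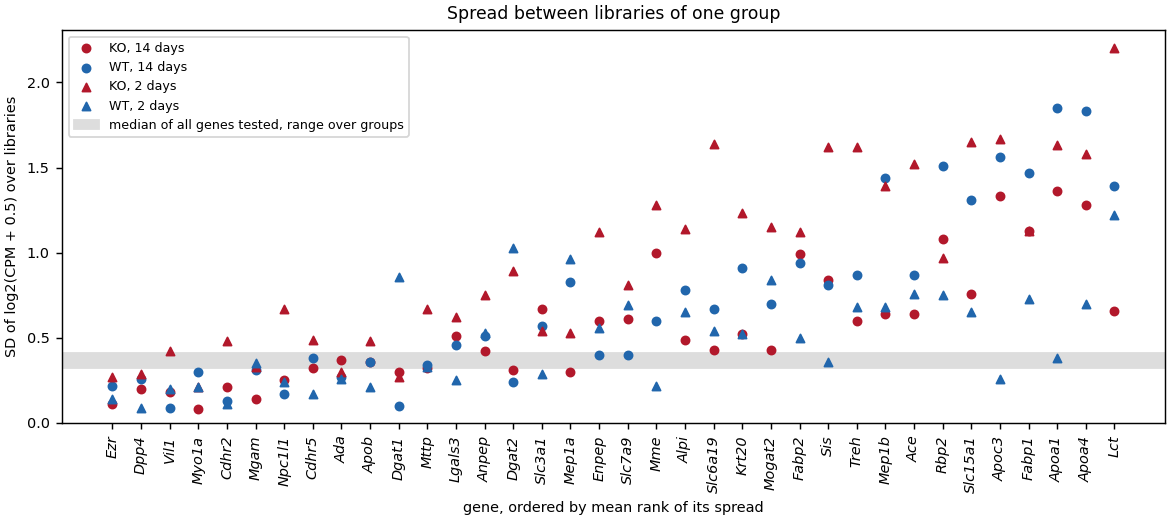
SD of log2(CPM + 0.5) over the libraries of each group for each of the 36 genes, ordered by mean rank, with KO in red, WT in blue, 14 days as circles and 2 days as triangles. The grey band spans the 4 group medians over all genes tested, 0.32 to 0.41, and Ezr, Dpp4 and Vil1 stand at the low end and Apoa1, Apoa4 and Lct at the high end.

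Levels of different genes were compared per exon length, as TPM (counts scaled by exon length and library). At 14 days the highest were Fabp1 (median 1781 TPM in KO and 1505 TPM in WT) and Fabp2 (861 TPM in KO and 840.3 TPM in WT), and the lowest was Slc15a1 (0.660 TPM in KO and 0.936 TPM in WT). At 2 days Fabp2 led with 903 TPM in KO and 455 TPM in WT, followed in WT by Vil1 at 329.9 TPM and Anpep at 211 TPM. The ranking differed between the tables. Lgals3 had a median of 114 TPM in KO and 152 TPM in WT at 14 days, and 13.0 TPM in KO and 6.24 TPM in WT at 2 days, whereas Anpep had 34.4 TPM in KO and 43.1 TPM in WT at 14 days, and 247 TPM in KO and 211 TPM in WT at 2 days. TPM was not TMM-scaled and its totals include the satellite-like counts, and the order of the genotypes for Lgals3 at 14 days is the opposite of that in mean CPM, while the median CPM values were 102 CPM in KO and 106 CPM in WT. These differences between times were not tested, since the tables were made and scaled apart.

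Further genes of the same tasks, none of them in the set, were examined from lists of the same pathways. These lists too were chosen with earlier results of these data known. They were not examined without KO library 1 of 2 days, from which the tendency of the set mostly came. Of all genes tested, 49.0% were negative at 14 days and 51.0% were positive at 2 days. Of 28 other genes of lipid absorption, 19 were negative at 14 days (median log2 fold change −0.16) and 23 of the 27 tested were positive at 2 days (median 0.40). Slc27a4, a fatty acid transport protein with acyl-CoA synthetase activity, had 29.2 ± 4.32 CPM in KO and 41.8 ± 14.7 CPM in WT at 14 days (SD, n = 5 each), and 19.7 ± 8.53 CPM in KO and 9.14 ± 3.01 CPM in WT at 2 days (SD, n = 4 each). Of 24 tested genes for further peptide, amino acid and ion uptake, 17 were negative at 14 days (median −0.23) and 20 were positive at 2 days (median 0.84). Slc26a6, an anion exchanger, had log2 fold changes of −0.62 ± 0.23 at 14 days and 2.03 ± 0.63 at 2 days (SE). Slc9a3, the apical sodium-proton exchanger, had one of 2.08 ± 0.57 at 2 days (SE). It was scarce there, at 5.35 ± 3.46 CPM in KO and 1.27 ± 0.378 CPM in WT (SD, n = 4 each). Among 20 transcription factors of absorptive cells, 16 were negative at 14 days (median −0.07) and 14 positive at 2 days (median 0.22). Creb3l3, a membrane-bound factor that controls apolipoprotein genes, had −0.47 ± 0.19 at 14 days and 1.66 ± 0.61 at 2 days (SE). Creb3l3 is counted both among these factors and among the villus tip genes, as is Klf4. Further structural genes of the brush border were split, with 10 of 16 negative at 14 days (median −0.09) and 10 of 17 negative at 2 days (median −0.04), and of 6 villus tip genes 4 were negative at 14 days (median −0.08) and 4 positive at 2 days (median 0.12). None of these genes was called by edgeR at either time, where 0.0% of all genes were called. Those at an unadjusted p under 0.05 at 14 days were Creb3l3, Maf, Slc27a4, Abcg5, Gpat3, Xpnpep2 and Slc26a6, all negative, where 1.55% of all genes were. At 2 days there were 8 of 24 for uptake, 6 of 27 for lipid absorption, 2 of 20 transcription factors, 1 of 17 structural genes and 1 of 6 villus tip genes, all positive, where 2.72% of all genes were. Slc9a3, Slc51a (1.51 ± 0.44 SE), Slc26a6 and Slc27a4 were among them.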

How the data were processed

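Counts per gene were deposited as 2 tables, of 10 libraries at 14 days and 8 at 2 days. Per the labels, libraries were made by a SmartSeq protocol with Nextera XT. The submitters' processing notes name bcl2fastq 2.20.0.422, STAR 2.4.2a and GRCm38, while the counter, its strand setting and the annotation are not named by them. The deposited values were whole-number counts. Symbols, exon lengths and positions came from GENCODE M21 (GRCm38), which named 42462 of 43432 identifiers. The 36 genes and the further lists were chosen with earlier results of these data known.

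Genes were filtered with edgeR 4.0.16 (filterByExpr, minimum count 10), scaled by TMM and tested with glmQLFit and glmQLFTest in R 4.3.3, at each time alone and jointly for the difference between times. P-values were adjusted by Benjamini-Hochberg over all genes, with a threshold of 0.05. The SE of a log2 fold change was derived as its absolute value divided by the square root of the quasi-likelihood F statistic. CPM used TMM-scaled totals, each table scaled separately, and TPM used exon lengths. SDs of log2 values used a pseudocount of 0.5 CPM. Exact permutation tests were two-sided. Alternatives were DESeq2 1.42.0, limma 3.58.1 (voom), other scalings and filters, and each library left out. The scripts were tested on simulated data, with a dispersion of 0.05 for every gene and changes placed in well-expressed genes only. That test does not show how well changes are found in genes as variable as those of the set. Every library's value is given for the 6 genes of smallest unadjusted p at each time, the 3 of highest TPM in WT at 2 days and the gene of smallest p for the difference, plus others as ranges or means. Libraries are numbered by their place in the tables. Totals of 11.1 to 40.5 M counts leave some genes with few counts. At 14 days Slc15a1 had 6 counts in KO library 3 and Treh 9 in KO library 5. At 2 days Apoc3 had 9 counts in KO library 3. Values from counts this low are imprecise.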

Additional observations from a re-analysis of the deposited data

Results flagged for a closer look

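Dixon's test was applied to the CPM of 144 combinations of gene and group. Its nominal rate, about 1 in 20, assumes independent and normally distributed values. Several genes were flagged in the same library, and the share flagged over all genes was not computed, so the count is a description. A single library lay far from the others of its group in 28 of the 144 combinations. Of these, 10 were KO library 1 at 14 days, which was highest with 296 CPM for Sis, 98.0 for Anpep, 552 for Apoa1, 85.2 for Apoa4, 54.2 for Apoc3, 203 for Mttp, 92.5 for Npc1l1, 54.0 for Slc7a9, 51.1 for Mep1b and 92.9 CPM for Enpep. The other 4 KO libraries lay at 46.2 to 128 CPM for Apoa1 and at 8.93 to 14.4 CPM for Apoa4. WT library 3 at 14 days was highest for 9 genes, with 1031 CPM for Apoa1, 170.2 for Apob, 70.8 for Apoc3, 2246 for Fabp1, 905 for Fabp2, 683 for Rbp2, 14.2 for Slc15a1, 247 for Myo1a and 190.1 CPM for Lgals3. The other 4 WT libraries lay at 179 to 356 CPM for Fabp1.

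At 2 days KO library 1 was highest with 115 CPM for Alpi, 178 for Npc1l1, 29.4 for Slc15a1, 89.1 for Mep1b and 114 CPM for Krt20, and the other 3 KO libraries lay at 64.7 to 74.6 CPM for Npc1l1. WT library 1 at 2 days was highest for Sis at 79.9 CPM and Fabp1 at 64.2 CPM, and lowest for Dgat1 at 25.2 CPM, with the other 3 WT libraries at 81.5 to 86.5 CPM. WT library 3 at 2 days was lowest for Apoc3, at 1.5 CPM. The cause of these values was not tested.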

How the results depend on the processing

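No paired analysis was possible because the columns carry none of the labels' replicate numbers. At 14 days the count at an unadjusted p under 0.05, 5 of 36, was 8 with DESeq2, 1 in the joint fit, 1 with limma voom, 15 with no filter and 20 in libraries named J. The number positive, 5, was 24 in an edgeR fit of the libraries named B, and both subsets were chosen after seeing the data. With the letter of the name as a term, also added after seeing the data, the median was −0.29, the count 6 and the number positive 4. At 2 days the 12 became 19 in the joint fit, 6 with voom and 22 with no filter. For the difference between times the 18 became 6 with voom, and 15 genes were called with no filter. Leaving out each library gave, at 14 days, medians of −0.57 to −0.15, counts of 0 to 16 and 3 to 9 positive. At 2 days it gave medians of 0.15 to 1.24, counts of 2 to 21 and 27 to 35 positive. For the difference it gave medians of −1.62 to −0.67, counts of 5 to 28 and 3 to 4 positive. Exact p-values under 0.05 numbered 2 to 7 at 14 days (2 with all libraries) and 0 at 2 days, where 3 against 4 cannot go below 0.0571.

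Signs turned in libraries named B for Sis (0.91), Mgam (0.08), Anpep (0.11), Mme (0.08), Apoa1 (1.43), Apoa4 (0.75), Apob (0.19), Apoc3 (1.24), Mttp (0.17), Fabp1 (1.61), Rbp2 (1.61), Dgat1 (0.10), Mogat2 (0.07), Npc1l1 (0.15), Slc15a1 (0.16), Ace (0.08), Mep1a (−0.17), Mep1b (0.50), Cdhr5 (0.07), Enpep (0.27) and Krt20 (0.23). They turned in libraries named J for Fabp2 (−0.84), Slc3a1 (0.05) and Lgals3 (−0.39), with the letter as a term for Fabp2 (−0.01), and with voom for Fabp1 (0.02) and Rbp2 (0.0). The difference for Mgam was 0.03 with DESeq2 and with RLE factors, and 0.01 with voom and without mitochondrial genes. With 1 library left out, ranges that crossed 0 at 14 days were −0.58 to 0.33 for Sis, −1.85 to 0.57 for Apoa1, −1.78 to 0.55 for Apoc3, −0.87 to 0.97 for Fabp1, −0.41 to 0.71 for Fabp2, −1.01 to 0.78 for Rbp2, −0.27 to 0.11 for Slc3a1, −0.10 to 0.35 for Mep1a and −0.17 to 0.35 for Lgals3. At 2 days they were −0.32 to 0.03 for Mgam, −0.06 to 0.62 for Anpep, −0.0 to 0.21 for Dpp4, −0.24 to 0.81 for Mme, −0.03 to 0.36 for Apob, −0.03 to 1.62 for Apoc3, −0.14 to 1.84 for Slc15a1, −0.04 to 0.43 for Slc3a1, −0.74 to 0.01 for Mep1a and −0.10 to 0.16 for Ada, and for the difference −0.17 to 0.17 for Mgam. The cause was not tested.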
